A study of Rattus norvegicus with 6 samples.

Results

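Retinoid genes were compared between rat endometrial epithelial organoids (rEEOs) and rat bone marrow mesenchymal stem cells (rBMSCs). The set was defined by gene symbol and named 10 genes, among them the retinal dehydrogenases *Aldh1a1*, *Aldh1a2* and *Aldh1a3*, the retinol binding protein *Rbp4*, the retinoic acid binding proteins *Crabp1* and *Crabp2*, the RBP4 receptor *Stra6*, and the retinoic acid hydroxylases *Cyp26a1* and *Cyp26b1*. Of these, 8 were among the 13728 genes of the table, and *Aldh1a3* and *Cyp26a1* were not analysed here. *Aldh1a1* is also one of the genes by which the study described epithelial progenitors in these same libraries, so its direction is not independent evidence.

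Bulk RNA-seq was available for 3 rEEOs and 3 rBMSCs libraries, and the study asked whether organoids repair injured endometrium better than stem cells. The rEEOs were grown from glandular fragments of the uterus of young female SD rats, in Matrigel droplets with an expansion medium whose B27 supplement lacked vitamin A. The rBMSCs carried red fluorescent protein (RFP), were purchased from a single supplier and were grown in medium with serum. Neither group had a hormone treatment in its labels. Cell type, medium, matrix and source of cells therefore differed together and cannot be told apart in any comparison below. The labels do not say whether the 3 libraries of a group came from separate animals or cultures, so p-values measure the spread between these libraries only.

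Vitamin A enters cells as retinol, carried in blood by RBP4 and taken up through STRA6 or by endocytosis. Inside the cell it is either esterified for storage by LRAT or oxidised, first to retinal by RDH10 and related enzymes and then to retinoic acid by the ALDH1A enzymes. CRABP proteins carry retinoic acid in the cytoplasm, the RAR and RXR receptors act on genes when it binds, and CYP26 enzymes break it down. In the uterus, lack of vitamin A is known to turn the epithelium towards a squamous, keratinised form.

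The labels held against marker genes. All 8 epithelial markers listed rose in rEEOs, where their summed level lay between 4960 and 5550 TPM (a transcript level scaled to transcript length and library size), against 2.54 to 3.00 in rBMSCs. All 8 mesenchymal markers fell, and their sum was 171 to 298 TPM in rEEOs, carried almost entirely by *Vim*, against 35700 to 38100 in rBMSCs. Of the endothelial and macrophage markers held, none exceeded 23 counts in any library. The libraries held 10457958 to 15421501 reads over all 13728 genes of the table. The rEEOs varied more than the rBMSCs, with a median SD of log2(CPM + 1) of 0.34 against 0.0877, which was 0.164 without rEEOs 1. In bulk RNA, fewer cells of a type and less RNA per cell cannot be told apart.

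The stretch upstream of the start of *Aldh1a2*, *Aldh1a1* and *Crabp2* is shown because these were the 3 set members with enough reads in rEEOs to be tested. The sequences are the 250 bases before the RefSeq start on the plus strand of GRCr8, at chr8:80758391-80758640, chr1:227537370-227537619 and chr2:175714612-175714861. Capitals mark the octamer ATGCAAAT, the CCAAT box and the TATAAA box.
Aldh1a2: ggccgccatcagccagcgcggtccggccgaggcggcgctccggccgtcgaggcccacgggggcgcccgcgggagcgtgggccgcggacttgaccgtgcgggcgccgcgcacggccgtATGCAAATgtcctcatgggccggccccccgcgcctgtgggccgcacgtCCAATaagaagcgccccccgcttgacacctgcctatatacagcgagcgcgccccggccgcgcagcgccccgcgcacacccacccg
Aldh1a1: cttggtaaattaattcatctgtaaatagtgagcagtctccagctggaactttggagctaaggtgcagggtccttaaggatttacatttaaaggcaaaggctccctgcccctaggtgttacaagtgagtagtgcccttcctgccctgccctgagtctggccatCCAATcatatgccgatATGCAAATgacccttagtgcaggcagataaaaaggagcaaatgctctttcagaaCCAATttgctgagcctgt
Crabp2: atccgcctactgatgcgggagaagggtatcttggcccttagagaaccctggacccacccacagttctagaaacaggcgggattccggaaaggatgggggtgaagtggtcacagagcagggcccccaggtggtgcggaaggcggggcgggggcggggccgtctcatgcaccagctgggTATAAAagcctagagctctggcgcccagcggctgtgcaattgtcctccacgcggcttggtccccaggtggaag
The windows differed in base composition, with 77.2% G and C in *Aldh1a2*, 63.2% in *Crabp2* and 46.4% in *Aldh1a1*. The octamer lay 133 to 126 bases before the start of *Aldh1a2* and 72 to 65 bases before that of *Aldh1a1*. It was searched for after the sequences had been read, and 523 of 33469 rat windows of this length (1.56%) hold it on either strand. CCAAT was found at 1 place in *Aldh1a2* and at 2 in *Aldh1a1*, and 34.0% of windows hold it. *Crabp2* had a TATAAA box, found in 12.9% of windows, at 73 to 68 bases before the start, and GGGCGG, found in 30.5%, at 2 places. Retinoic acid receptors bind direct repeats of a core site, searched here on both strands as the letters AGGTCA, together with the form AGTTCA, the form GGGTCA and the form GGTTCA. No repeat with 5 or 2 bases between the sites was in the 3 windows, and 0.326% and 0.137% of all windows hold one. A single core site was in *Aldh1a1*, on the minus strand and sharing 1 base with the octamer, and 39.1% of windows hold one. These matches describe letters only.

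The retinal dehydrogenase genes *Aldh1a2* and *Aldh1a1* were read in rEEOs and were at or near 0 in rBMSCs. This did not hold for *Aldh8a1*, a further gene listed with them. It was read 7, 1 and 3 times in rEEOs and 2, 1 and 0 times in rBMSCs, too few for the filter of 10 counts in 3 libraries. ALDH1A2 oxidises retinal to retinoic acid and is the main such enzyme of many embryonic tissues. *Aldh1a2* (gene ID 116676) was at 141.25, 119.00 and 101.69 TPM in rEEOs 1 to 3 and at 0.19, 0.23 and 0.15 TPM in rBMSCs 1 to 3. Every rEEOs library lay far above every rBMSCs library, and the rEEOs were close to each other, with the highest 1.39 times the lowest. By edgeR's quasi-likelihood test the log2 fold change of rEEOs over rBMSCs was 9.51 (SE 0.23, Benjamini-Hochberg adjusted p = 4.29e-06), or 729.9-fold.

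ALDH1A1 carries out the same step and is widely used to mark progenitor cells. *Aldh1a1* (gene ID 24188) was at 69.47, 32.19 and 60.80 TPM in rEEOs 1 to 3, a mean of 54.2 ± 19.5 (SD, n = 3), and had no count in any rBMSCs library. The second rEEOs library was the lowest and the first the highest, at 2.16 times the lowest, and no rEEOs value came near 0. Against the highest floor that 3 counts set in an rBMSCs library, *Aldh1a1* was at least 391.8-fold higher in rEEOs (adjusted p = 0.000111). Of the 10607 genes tested, 480 (4.53%) likewise had no count in any rBMSCs library.

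Within the rEEOs, *Aldh1a2* exceeded *Aldh1a1* in TPM, which is scaled to transcript length, in 3 of 3 libraries. It made up 67.0%, 78.7% and 62.6% of the sum of both (69.4 ± 8.32%, n = 3), and the sum was 174.8 ± 31.6 TPM. Another gene bears on that share. *Aldh1a7* (gene ID 29651), a rodent gene of near-identical sequence to *Aldh1a1*, was at 131.51, 62.78 and 68.31 TPM in rEEOs and had no count in rBMSCs, and it rose at least 124.4-fold (adjusted p = 9.98e-05). The expected counts of *Aldh1a1* and *Aldh1a7* were not whole in any rEEOs library, but added to 2172, 1024 and 1695 within 0.015. No other gene's counts did so with those of *Aldh1a1*. Reads were therefore shared between this pair, and how they fall to each is uncertain. With *Aldh1a7* added, *Aldh1a2* made up 41.3%, 55.6% and 44.1% (47.0 ± 7.58%). That share depends on the split and on the transcript length used for TPM. In rEEOs 1, 1 TPM of *Aldh1a7* rested on 4.48 counts, against 22.8 for *Aldh1a1* and 24.8 for *Aldh1a2*. The length used for *Aldh1a7* was thus far shorter, which raised its TPM for a given count. With all counts of both genes given to *Aldh1a1*, *Aldh1a2* would make up 59.7%, 72.6% and 57.7%. With all given to *Aldh1a7*, *Aldh1a2* would make up 22.6%, 35.0% and 21.6%. How many of these counts were shared is not known, so these are outer limits.

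**Figure D1:**
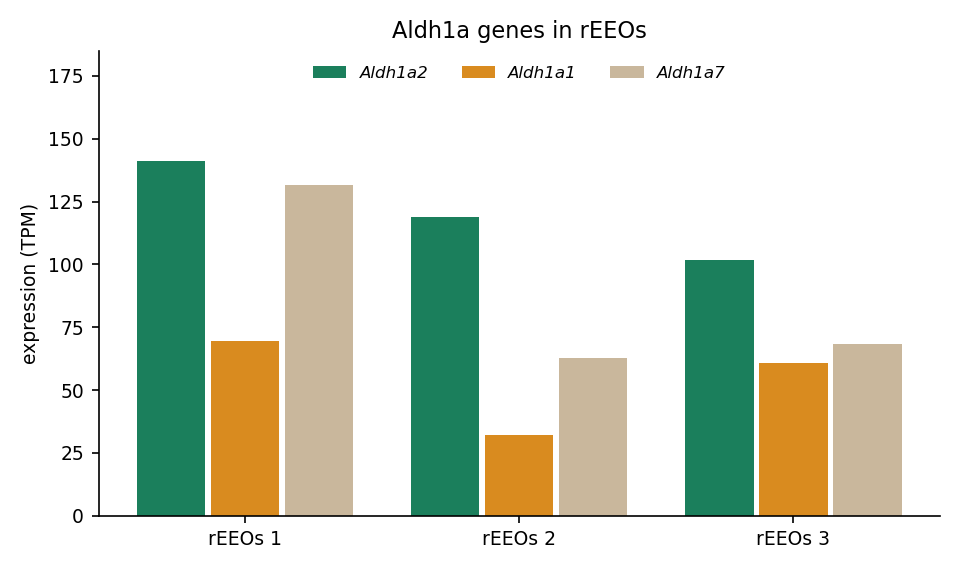
Level in TPM (bars from 0) of 3 Aldh1a genes in each rEEOs library. *Aldh1a2* is the tallest bar in all 3 libraries, from 101.69 to 141.25 TPM, and the division of reads between *Aldh1a1* and *Aldh1a7* is uncertain.

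Of the retinoic acid binding proteins, CRABP2 passes retinoic acid on to RAR, and CRABP1 holds it in the cytoplasm. *Crabp2* (gene ID 29563) was at 35.53, 77.64 and 28.63 TPM in rEEOs 1 to 3 and at 3.43, 4.06 and 2.17 TPM in rBMSCs. The rEEOs did not overlap the rBMSCs, and rEEOs 2 stood above the other rEEOs, the reverse of *Aldh1a1*, which was lowest there. The log2 fold change was 3.82 (SE 0.57, adjusted p = 0.00149, edgeR's quasi-likelihood test), or 14.1-fold. Without rEEOs 2 it was 3.10 (adjusted p = 0.000578). *Crabp2* counts added to whole numbers with those of an unnamed gene, LOC108348208, whose counts were at most 4.17 in any library. *Crabp1* (gene ID 25061) had 1, 0 and 2 counts in rEEOs and none in rBMSCs. Both groups lay at or under 3 counts, so no difference was detectable at this depth.

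RBP4, the carrier of retinol in blood, and its receptor were at or near 0 in most libraries. *Rbp4* (gene ID 25703) had 155, 0 and 0 counts in rEEOs 1 to 3, or 20.64, 0 and 0 TPM, and none in rBMSCs. It was read in rEEOs 1 alone, at least 35.7-fold above the floor of the other rEEOs. It did not pass the filter of 10 counts in 3 libraries, and in an edgeR fit of every gene with 1 count its adjusted p was 0.114.

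*Stra6* (gene ID 363071), the receptor that takes retinol from RBP4, was read 5, 0 and 5 times in rEEOs, against 0, 1 and 0 times in rBMSCs. Its groups overlapped, with an adjusted p of 0.133 in the same fit. In such low counts a difference was not detectable, and neither gene is shown to be absent.

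Genes read in a single library were counted to place *Rbp4*. With at least 20 counts in a library and none in the other 5, rEEOs 1 had 13 genes, rEEOs 2 had 1 and rEEOs 3 had 2, and each rBMSCs library had 1. Among the 13, chosen after their values were seen, were *Krt13* with 44 counts, *Dsg1* with 57, *Dsc3* with 48 and *Cnfn* with 39, which are known from stratified and keratinising epithelia. Whether cells of that kind carried the *Rbp4* counts was not tested.

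CYP26 enzymes hydroxylate retinoic acid and so end its action. Counts of *Cyp26b1* (gene ID 312495) were 2, 8 and 4 in rEEOs against 8, 5 and 3 in rBMSCs, or 0.04, 0.15 and 0.07 TPM against 0.17, 0.10 and 0.07 TPM. The groups overlapped throughout, and the fit of all genes with a count put the log2 fold change at -0.11 (adjusted p = 0.911). *Cyp26c1*, a related hydroxylase outside the set, had 14, 11 and 7 counts in rEEOs and none in rBMSCs, and it was not tested. The sum of *Cyp26b1* and *Cyp26c1* was 0.26, 0.32 and 0.18 TPM in rEEOs. The *Aldh1a1* and *Aldh1a2* sum in the same libraries was 210.72, 151.19 and 162.49 TPM. With *Cyp26a1* and *Aldh1a3* not analysed here, neither sum covers all genes of its family.

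**Figure D2:**
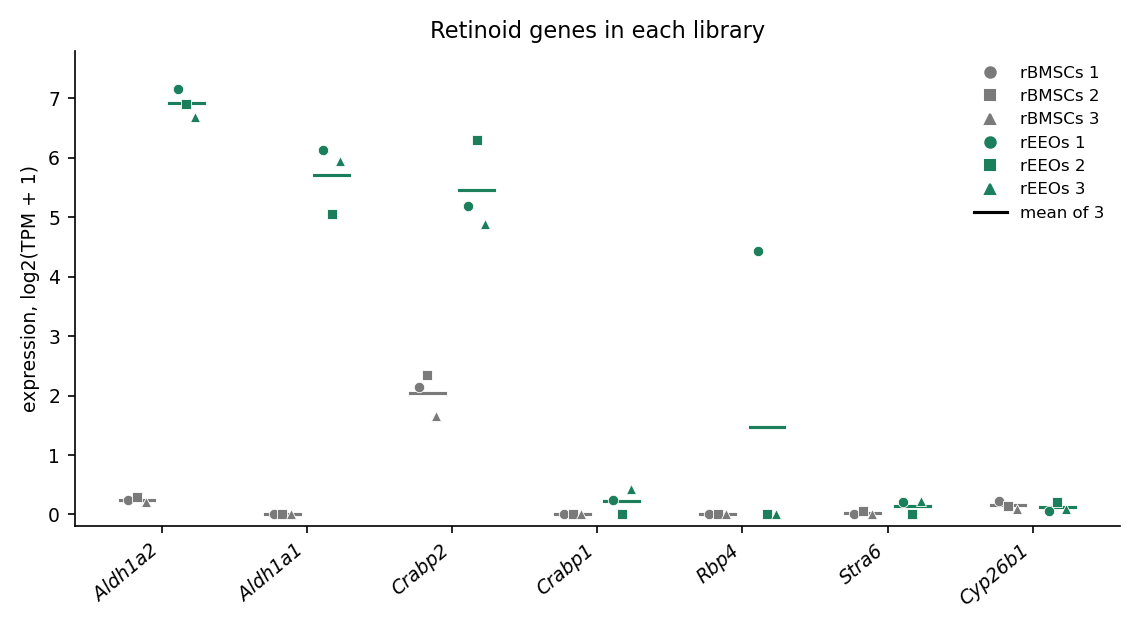
Level of set members, as log2(TPM + 1), in each library, with points for libraries (grey rBMSCs, green rEEOs) and lines for the mean of 3. *Aldh1a2*, *Aldh1a1* and *Crabp2* are higher in all 3 rEEOs, *Rbp4* is read in rEEOs 1 alone, and the rest are near 0.

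A gene was called higher or lower where the adjusted p was below 0.05 and the log2 fold change beyond 2 in size. Of all genes tested, 16.3% were called higher and 13.3% lower in rEEOs. All 3 set members tested were called higher and none lower, 2 of them having passed the filter through the rEEOs alone, so this count supports nothing about the other 5. The 3 TPM values of the groups did not overlap for any of the 3, nor for 69.6% of all genes tested. Of 49 further pathway genes listed, 34 were held and 24 tested, of which 8 were called higher and 3 lower. Among those 8, 6 had fewer than 10 counts in every rBMSCs library. The median log2 fold change was 0.53, against 0.08 over all genes. By the adjusted p alone, 12 of the 24 were higher and 6 lower, where 33.3% of all genes were higher and 30.2% lower. Without rEEOs 1, 5 were called lower in place of 3. With 14 aldehyde dehydrogenases from outside the retinoid pathway added to the list, 35 genes were tested, 9 called higher and 4 lower.

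Most retinol oxidising and retinal reducing enzymes tested were not called. Of 15 listed, 10 were held and 8 tested, with calls of 2 higher and 0 lower and a median log2 fold change of 0.56. By the adjusted p alone, 4 were higher and 1 lower. RDH10 forms retinal for retinoic acid synthesis. *Rdh10* was at 41.53, 22.19 and 19.38 TPM in rEEOs and at 6.03, 5.50 and 5.99 TPM in rBMSCs, without overlap. It rose by a log2 fold change of 2.45 (SE 0.23, adjusted p = 0.000205). *Adh1*, an alcohol dehydrogenase that also oxidises retinol, was at 9.14, 2.03 and 4.81 TPM in rEEOs with no count in rBMSCs. It rose at least 30.9-fold (adjusted p = 0.0016).

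Other enzymes of the list were not called. DHRS3 reduces retinal back to retinol. *Dhrs3* was at 3.60, 0.41 and 2.24 TPM in rEEOs against 7.93, 7.64 and 8.92 TPM in rBMSCs, all lower, with a log2 fold change of -1.81 (SE 0.58, adjusted p = 0.0314). It was short of the fold threshold in the fit of all libraries and past it without rEEOs 1, at -2.18. Its edgeR adjusted p was 0.073, 0.0767 and 0.084 without rBMSCs 1, 2 and 3. It was 0.0658 without rEEOs 3 and 0.0746 with library size only, so *Dhrs3* did not pass the adjusted p threshold in these fits. *Rdh13* (1.13) and *Rdh16* (1.19) were past the adjusted p threshold with smaller fold changes. *Rdh11* (-0.08) and *Dhrs4* (-0.02) did not pass either threshold. *Adh7* was spread over 6, 167 and 77 counts in rEEOs, against 176 to 180 in rBMSCs, with an adjusted p of 0.427.

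Several storage and uptake genes were read in rEEOs and hardly at all in rBMSCs. Of 16 listed, 9 were held and 6 tested, and the calls were 4 higher and 0 lower. Over all genes tested, 16.3% were called higher and 13.3% lower. All 4 called genes had under 10 counts in every rBMSCs library, so they passed the filter through the rEEOs alone. Neither this count nor the median below says anything about the genes held but not tested. The median log2 fold change was 5.83, or 4.83 with folds against 3 counts in place of fits to 3 or fewer. LRAT esterifies retinol with a fatty acid for storage. *Lrat* was at 305.68, 161.91 and 129.51 TPM in rEEOs, a mean of 199 ± 93.8 TPM, with no count in rBMSCs. It was at least 4007-fold higher (adjusted p = 5.47e-05) and exceeded *Aldh1a2* in TPM in all 3 rEEOs.

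*Lrp2*, the endocytic receptor megalin, which takes up RBP4 among other ligands, was at 19.19, 14.24 and 48.26 TPM in rEEOs and at 0.05 TPM in each rBMSCs library. It rose by a log2 fold change of 9.29 (SE 0.73, adjusted p = 9.69e-05), which was 8.47 without rEEOs 3. *Bco2*, which cleaves carotenoids, was read 56, 62 and 54 times in rEEOs, against 0, 1 and 2 times in rBMSCs. Its rEEOs mean lay 19.0-fold above the level of 3 counts in rBMSCs (edgeR adjusted p = 0.000396). *Cd36*, a transporter of fatty acids and carotenoids, had 149.2, 12 and 236.54 counts in rEEOs and at most 3 in rBMSCs. Its rEEOs mean lay 42.4-fold above the level of 3 counts in rBMSCs (edgeR adjusted p = 0.00754). Since rBMSCs 2 and 3 reached 3 counts, that fold is not a lower bound. The counts of *Cd36* were not whole, so reads were shared with another gene, and rEEOs 2 lay far below the others. *Dgat1*, an acyltransferase of fats that can also esterify retinol, had a log2 fold change of 0.88 and *Scarb1*, a carotenoid receptor, one of 0.50, both short of the fold threshold. *Rbp2*, a cellular retinol carrier, was read 42, 9 and 4 times in rEEOs, against 1, 0 and 0 times in rBMSCs. It did not pass the filter of 10 counts in 3 libraries.

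**Figure D3:**
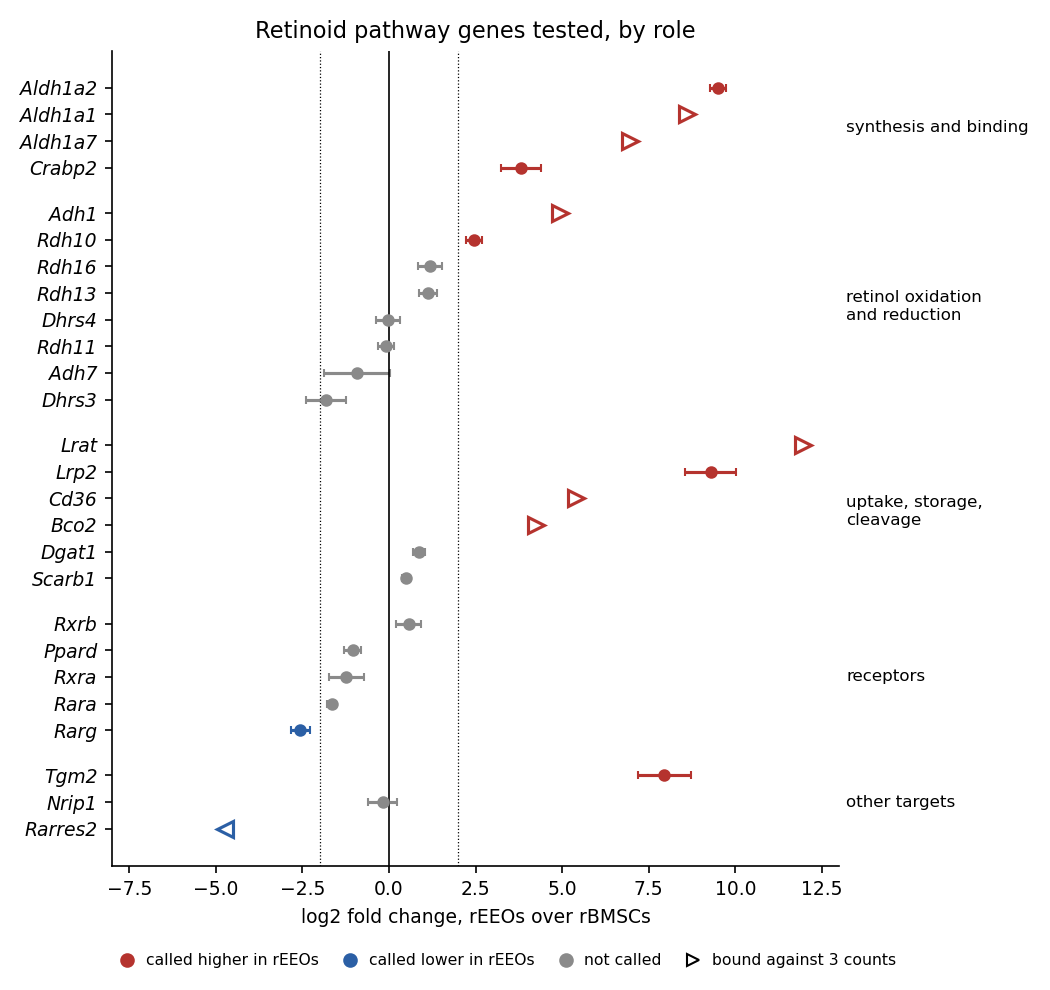
Log2 fold change of rEEOs over rBMSCs for retinoid pathway genes tested, grouped by role, with bars of 1 SE and dotted lines at the fold threshold of 2. Triangles are folds against 3 counts where a cell type had 3 or fewer, and are bounds only where it had none. *Lrat*, *Aldh1a2* and *Lrp2* lie farthest right.

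The receptors were read in both cell types. Of 8 genes listed for the receptors and the alternative PPAR delta route, 6 were held, 5 tested, none called higher and 1 lower, with a median log2 fold change of -1.23. RARA and RARG are receptors of retinoic acid, and the RXR proteins are their partners. *Rarg* was at 13.67, 17.54 and 10.16 TPM in rEEOs and at 99.92, 95.39 and 97.65 TPM in rBMSCs. It fell by 2.55 on the log2 scale (SE 0.27, adjusted p = 0.000334). *Rara* was at 12.02, 8.38 and 10.67 TPM against 42.84, 40.88 and 40.90 TPM, a log2 fold change of -1.65 (SE 0.13, adjusted p = 0.000101) that was short of the fold threshold.

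The partner receptors did not move alike. *Rxra* was at 28.58, 5.55 and 6.16 TPM in rEEOs against 36.20, 29.46 and 35.73 TPM in rBMSCs. The first rEEOs library lay just under the rBMSCs and the other rEEOs well under them, so the log2 fold change was -1.23 (adjusted p = 0.0747) with all libraries and -2.08 (adjusted p = 3.29e-05) without rEEOs 1. *Rxrb* was at 20.55, 39.89 and 24.39 TPM against 22.59 to 23.30 TPM, and the groups overlapped (log2 fold change 0.57, adjusted p = 0.199). *Rxrg* had at most 6 counts in any library. *Ppard*, the receptor of the alternative route, was lower by a log2 fold change of -1.04 (SE 0.25, adjusted p = 0.01), short of the fold threshold. *Rarb* and *Fabp5* were not analysed here.

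Textbook targets of retinoic acid did not share a direction. Of 15 listed, 12 were held and 7 tested, with 3 called higher, 2 lower and a median log2 fold change of -0.18. The 3 higher were *Lrat* and *Crabp2*, described above, and *Tgm2*, a transglutaminase. *Tgm2* was at 613.56, 93.76 and 137.44 TPM in rEEOs and at 1.13, 1.12 and 1.36 TPM in rBMSCs. Every rEEOs library was high, rEEOs 1 most of all, and the log2 fold change was 7.95 (SE 0.76, adjusted p = 0.000216), or 7.02 without rEEOs 1.

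Of the lower genes, *Rarres2*, which encodes the secreted protein chemerin, was at 19.53, 21.99 and 20.44 TPM in rBMSCs and had no count in rEEOs, at least 26.9-fold lower (adjusted p = 0.000218). *Nrip1*, a corepressor, stood at -0.18 on the log2 scale (adjusted p = 0.717), and *Stra8* and *Cdx1* had at most 7 counts in any library.

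**Figure D4:**
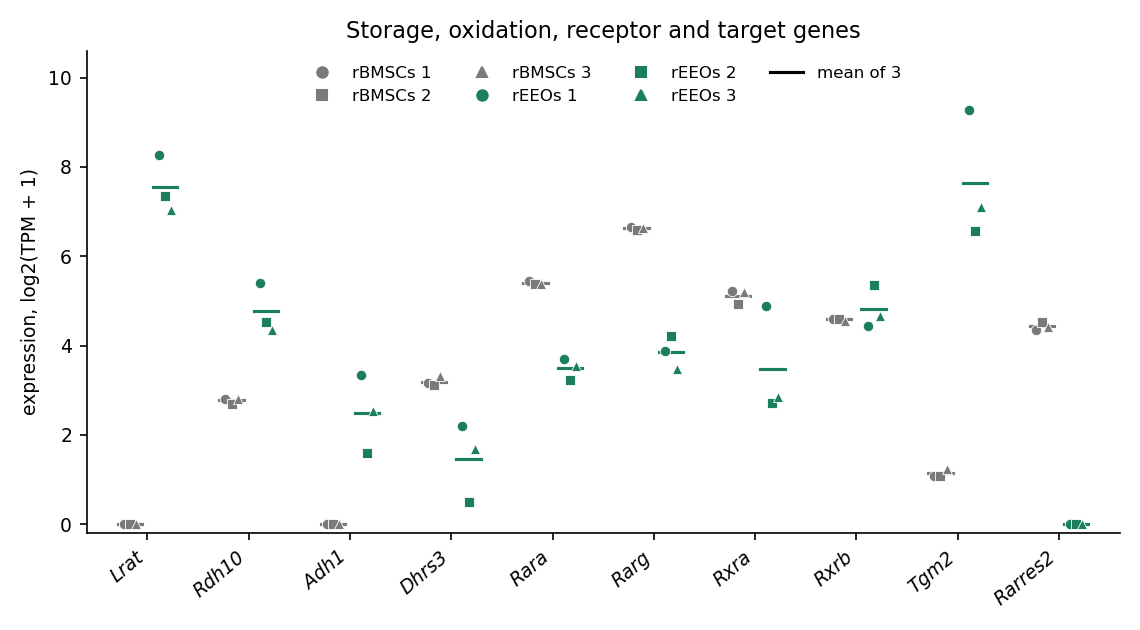
Level of storage, oxidation, receptor and target genes as log2(TPM + 1) in each library (grey rBMSCs, green rEEOs), with lines for the mean of 3. *Lrat* and *Tgm2* stand high in rEEOs, *Rarg* and *Rara* in rBMSCs, and *Rxra* in rEEOs 1 stands apart from the other rEEOs.

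The rEEOs differed among themselves in most retinoid genes. The ratio of the highest to the lowest rEEOs library was 1.39 for *Aldh1a2*, 2.16 for *Aldh1a1*, 2.71 for *Crabp2* and 2.36 for *Lrat*. Over 6086 tested genes of at least 10 TPM in rEEOs the median ratio was 1.62 and the 90th percentile 3.30, and 65.6% of these genes were highest in rEEOs 1. *Aldh1a1*, *Aldh1a2* and *Lrat* were highest in rEEOs 1 and *Crabp2* in rEEOs 2.

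The 5 tested genes whose log2(TPM + 1) over the 6 libraries lay nearest to *Aldh1a1* by Euclidean distance were *Iapp* (0.435), *Adig* (0.465), *Ap1m2* (0.486), *Slc44a4* (0.502) and *Eps8l2* (0.529). *Iapp*, which encodes the hormone amylin, was at 67.98, 27.27 and 46.90 TPM in rEEOs 1 to 3. The 5 genes were at 27.27 to 84.02 TPM in rEEOs and at most 0.07 TPM in rBMSCs.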

How the data were processed

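Poly(A) RNA of 3 rEEOs and 3 rBMSCs samples was sequenced. The submitters' processing notes name Trim Galore, Bowtie2 2.2.5 and the build Rnor_6.0, and the authors estimated expression with RSEM. The deposited table gives an expected count per gene in each library, which is not normalized and need not be whole because reads are shared between similar transcripts. It also holds the authors' TPM and FPKM, both scaled to transcript length. FPKM and 6 columns of group means were not used. The table was held here only as far as a broken last row, with 13728 genes, whose TPM sums to 81.3% to 82.7% of a library. No column of per-sample values was left unmapped.

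Expected counts were rounded, and the 10607 genes reaching 10 counts in 3 or more of the 6 libraries entered edgeR 4.0.16 (TMM, glmQLFit, glmQLFTest) in R 4.3.3, with no term but cell type and p-values adjusted over all genes by Benjamini-Hochberg. All adjusted p-values are from edgeR. A gene was called at an adjusted p below 0.05 and an absolute log2 fold change above 2. Where a cell type had 3 counts or fewer in every library, folds are against 3 counts, or 0.181 to 0.262 CPM. Such a fold is a bound only where no count was read, and it covers counting error only. With 3 against 3, an exact permutation test cannot go below 0.1. On simulated counts with a log2 fold change of 3 put into 200 of 10607 genes between rEEOs and rBMSCs, edgeR recovered 187 with 2 false calls. In the data a far larger share of genes was called, 16.3% higher and 13.3% lower in rEEOs. Recovery and false calls with that many genes changed were not tested.

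The genes named were all set members held, *Aldh1a7*, the receptors, the 3 highest and 3 lowest called genes of each list, and the 5 genes nearest to *Aldh1a1*; some genes that this rule takes in are not reported here, and uncalled genes of the lists, *Cyp26c1* and genes read in a single library were added after their values were seen. The members and lists were chosen with earlier results of these data known. Alternatives were DESeq2 1.42.0, its size factors, library size only, filters of 1 and 50 counts, limma 3.58.1 on log2(TPM + 1) or log2(TPM + 0.1), other fold thresholds, a replicate block and leaving out each library. Promoter windows were RefSeq's for GRCr8, matched by gene ID for 7 of the 8 members held. Python 3.11.15, pandas 2.3.3, numpy 2.4.6 and matplotlib 3.10.9 were used.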

Additional observations from a re-analysis of the deposited data

How the results depend on the processing

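Under every alternative run, 3 set members were called higher and 0 lower. Leaving out each library in turn, the log2 fold change lay between 13.09 and 13.51 for *Aldh1a1*, 9.37 and 9.68 for *Aldh1a2*, and 3.10 and 4.12 for *Crabp2*. Since *Aldh1a1* had no count in rBMSCs, the size of its fitted value depends on the small value that stands in for 0. It was 5.71 with limma on log2(TPM + 1) and 9.01 with log2(TPM + 0.1), and the bound against 3 counts was 8.61. Over the pathway list with the other aldehyde dehydrogenases, 9 of 35 genes tested were called higher and 4 lower. Calls higher were 5 of 34 tested with limma on log2(TPM + 1), 7 of 34 with log2(TPM + 0.1), and 11 of 35 with library size only. They were 12 of 46 with DESeq2 and 13 of 46 with the filter of 1 count, which let more genes in. Of 35, they were 14 at an absolute log2 fold change above 1, 17 by adjusted p alone, and 9 to 11 on leaving out a library. Calls lower were 9 and 10 under the 2 changed thresholds, and 3 to 6 under the other settings, with 3 without rEEOs 3 and 6 without rEEOs 1. Taking the other aldehyde dehydrogenases off the list, a choice made after seeing the data, left 8 higher and 3 lower. On the log2 scale with limma on log2(TPM + 1), *Rdh10* was 1.99, *Bco2* 1.54 and *Aldh5a1* 1.26, and with log2(TPM + 0.1) *Aldh5a1* was 1.81. Without rEEOs 3, the log2 fold change of *Cd36* was 5.0, and without rBMSCs 3, *Bco2* was 6.58.

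Adding *Aldh1a7* took the *Aldh1a2* share from 69.4% to 47.0%. The ratio of *Cyp26b1* levels, rEEOs over rBMSCs, was 0.765, and adding *Cyp26c1* took it to 2.24, with all levels under 1 TPM. Without rEEOs 2 the ratio was 0.485, for *Cyp26b1* alone. *Cyp26a1* was not analysed here, so these ratios do not cover all CYP26 genes. Scaling by library size only, which moved the median log2 fold change of all genes by 0.38, reversed 5 genes that were not called: *Rdh11* (0.31), *Dhrs4* (0.37), *Nrip1* (0.22), *Aldh6a1* (0.29) and *Aldh7a1* (0.18). *Dhrs4* was 0.01 with the filter of 50 counts. Leaving out a library reversed *Rdh11* (-0.32 to 0.10), *Dhrs4* (-0.38 to 0.31), *Nrip1* (-0.71 to 0.18) and *Aldh6a1* (-0.15 to 0.01). Depth limited what could be said of *Crabp1*, *Stra6*, *Cyp26b1* and *Cyp26c1*, which were read at most 14 times in any library.

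Replicate numbers gave no clear pairing of the samples. Deviations from the group means correlated at 0.17, 0.19 and -0.17 for equal numbers, and not every sample correlated best with its own number. With 3 libraries per group, each set against its own mean, such correlations cannot exclude a pairing. With the replicate block, 3 set members were called higher, and 9 genes of the pathway list with the other aldehyde dehydrogenases were called higher and 5 lower (8 and 4 without them), *Aldh1a1*, *Aldh1a2* and *Crabp2* were at 13.24, 9.52 and 3.66, and *Dhrs3*, at -2.03, was added to the calls.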

Other observations

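Aldehyde dehydrogenases outside the retinoid pathway were split between the cell types. Of 14 listed, 12 were held and 11 tested, with 1 called higher in rEEOs and 1 lower, and a median log2 fold change of -0.09. *Aldh1l2*, the mitochondrial formyltetrahydrofolate dehydrogenase, was at 77.58, 71.90 and 71.93 TPM in rBMSCs and at 3.48, 1.18 and 2.63 TPM in rEEOs. It fell by 4.72 on the log2 scale (SE 0.31, adjusted p = 4.66e-05, edgeR's quasi-likelihood test). *Aldh5a1*, which breaks down a product of the neurotransmitter GABA, was at 5.25, 2.53 and 4.08 TPM in rEEOs against 0.95, 1.04 and 1.05 TPM in the stem cells, and it rose by 2.17 on the log2 scale (SE 0.23, adjusted p = 0.000346).

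*Aldh2*, which oxidises acetaldehyde, was the most abundant aldehyde dehydrogenase named here in rEEOs, at 300 ± 84.9 TPM (SD, n = 3) against 146 ± 4.31 in rBMSCs. Its log2 fold change was 1.26 (adjusted p = 0.000527), short of the fold threshold. *Aldh4a1* and *Aldh3b1*, at log2 fold changes of 2.00 and 1.98, lay just under the threshold of 2 and passed it under several alternatives, among them library size only, at 2.39 and 2.35.

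Ciliated cell markers were read in rEEOs beside the retinoid genes. The 3 of 5 listed that were held were called higher, as were 16.3% of all genes tested. Of these 3 markers, 2 had under 10 counts in every rBMSCs library and so passed the filter through the rEEOs alone. The count of calls therefore adds little to the levels. The sum of the 3 was 5.33 to 6.81 TPM in rEEOs against 0.17 to 0.22 TPM in rBMSCs. *Foxj1*, the regulator of motile cilia, had 33, 38 and 33 counts in rEEOs and at most 2 in rBMSCs.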
